A study of Mus musculus with 5 samples.

Results

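MHC class II presentation was described here through 10 genes: the class II chain genes H2-Aa, H2-Ab1 and H2-Eb1, the invariant chain gene Cd74, the peptide loading genes H2-DMa, H2-DMb1, H2-Oa and H2-Ob, the transactivator gene Ciita and the costimulatory gene Cd86. Members were all probe sets whose platform annotation carried one of these symbols, which gave 16 of the 22626 probe sets that were not controls. Of the 16, 13 carried 1 symbol and represented 8 genes. The other 3 were shared with a second gene: 2 read H2-DMb1 and H2-DMb2 together, and 1 read H2-Ob and the predicted gene Gm20506 together.

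The study measured gene expression in thymic endothelial cells, which line the blood vessels of the thymus, on Affymetrix 3' expression arrays. There were 2 arrays of irradiated mice, taken at day 4 after sublethal total body irradiation with 550 cGy from a cesium source and without a transfer of blood-forming cells. They were set against 3 arrays of untreated mice, called day 0. Mice of both groups were female C57BL/6J animals of 6 to 8 weeks, and each array held cells pooled from several mice, so p-values measure the spread between pools, which may be partly technical. For both groups the same steps were described: magnetic removal of blood cells that carry CD45, then flow sorting of VE-cadherin-positive cells that carried neither CD45 nor the epithelial antigen EpCAM. The labels called the irradiated cells thymic stromal cells negative for CD45 and the untreated ones thymic endothelial cells.

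Class II molecules are pairs of an alpha and a beta chain that show peptides from endosomes to CD4 T cells. The invariant chain guides the pair to the endosome and blocks its groove, cathepsins trim it away, and H2-DM exchanges the remaining fragment for peptides while H2-O restrains H2-DM. In the thymus, epithelial cells, dendritic cells, B cells and some macrophages carry class II, and this display selects CD4 T cells. Transcription of the chain, DM and invariant chain genes depends on CIITA, a coactivator recruited by the RFX, CREB and NF-Y factors bound to a shared promoter module of X and Y boxes.

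Short parts of that module were sought in the RefSeq promoter windows of build GRCm38.p6, which run from 250 bases before to 50 bases after each gene's start. Windows of 6 of the 10 genes were included. None was included for H2-Ab1, Cd74, Ciita or Cd86, so the count of member genes with the motifs does not cover these. A search on both strands looked for GNAAC, a short part of the X box, and for ATTGG, the core of the Y box. The pair, GNAAC before ATTGG on the same strand with 30 to 36 bases between their first letters, was found in 5 of the 6 genes. The spacing was set after these sequences had been read. Of all 32851 windows, 1.25% held the pair, 37.4% held ATTGG and 84.8% held GNAAC. The longer CTGATTGG, which contains ATTGG, was present in 4.1% of windows and in those of H2-Aa, H2-Eb1 and H2-Oa. Neither window of H2-DMa held the pair. The stretches from 120 to 31 bases before the start are shown for the genes that held the pair, with both motifs in capitals. The motifs are short parts of the module through which class II genes are known to be switched together. The rest of the module was not searched.
H2-Aa, chr17:34287854-34287943, minus strand: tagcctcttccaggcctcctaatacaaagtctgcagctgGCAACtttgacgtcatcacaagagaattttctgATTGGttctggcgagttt
H2-Eb1, chr17:34305747-34305836, plus strand: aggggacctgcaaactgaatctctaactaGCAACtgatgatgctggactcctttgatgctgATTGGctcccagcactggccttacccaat
H2-Oa, chr17:34092259-34092348, plus strand: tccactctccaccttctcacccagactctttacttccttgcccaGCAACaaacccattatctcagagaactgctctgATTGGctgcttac
H2-DMb1, chr17:34153071-34153160, plus strand: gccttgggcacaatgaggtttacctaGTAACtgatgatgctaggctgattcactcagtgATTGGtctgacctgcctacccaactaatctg
H2-Ob, chr17:34238785-34238874, plus strand: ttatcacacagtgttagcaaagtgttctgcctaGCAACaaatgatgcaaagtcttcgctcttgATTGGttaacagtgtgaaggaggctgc
The first letters of the motifs lay 33 bases apart in H2-Aa, H2-Oa and H2-DMb1, 32 in H2-Eb1 and 30 in H2-Ob. A match describes the letters in the window and does not show binding.

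No class II member passed the test between irradiated and untreated pools. Of the 14 member probe sets that could be tested, 0 had an adjusted p under 0.05 with limma (Benjamini-Hochberg over all 15065 probe sets tested), where 1.39% of all did so, 0.717% higher and 0.677% lower. An unadjusted p under 0.05 was found for 7 of them, 5 lower and 2 higher at day 4, where 19.4% of all probe sets had one, 9.34% lower and 10.1% higher. The 12 probe sets of genes other than Cd86 all had differences below 0, with a median log2 difference of -0.74, and both Cd86 probe sets had differences above 0. The median over all probe sets tested was -0.0044. The level filter for a test was a deposited log2 value over 4 on 2 arrays or more, whichever their group. In bulk samples such as these, fewer cells that carry a transcript and less of it per cell cannot be told apart.

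The chain genes stood lower at day 4 by similar amounts. H2-Aa, the alpha chain of the class II molecule I-A, read 10.21 and 9.32 on its brighter probe set at day 4, against 11.09, 10.22 and 10.61 at day 0. Irradiated pools averaged 9.76 ± 0.63 (SD over 2 arrays) and untreated pools 10.64 ± 0.44 (SD over 3 arrays). Day 4 replicate 1 lay level with day 0 replicate 2, so the groups hardly separated. The log2 difference of -0.88 ± 0.34 (SE), a ratio of 0.544, did not pass (limma adjusted p = 0.233), and its 95% interval ran from -1.70 to -0.055. The other H2-Aa probe set read 8.28 and 7.33 at day 4, against 8.96, 8.06 and 8.49 at day 0. There the groups overlapped and the log2 difference was -0.70 (limma adjusted p = 0.336).

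H2-Ab1, the beta chain of I-A, had 3 probe sets that gave log2 differences of -0.87, -0.93 and -0.87. The brightest read 8.73 and 7.86 at day 4, against 9.61, 8.68 and 9.20 at day 0. Day 4 replicate 1 fell inside the day 0 range and day 4 replicate 2 below it, and the other H2-Ab1 probe sets had the same arrangement. The limma adjusted p of the 3 lay between 0.248 and 0.289.

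H2-Eb1 encodes the beta chain of I-E, a second class II molecule whose alpha chain C57BL/6 mice do not make. Its probe set read 8.69 and 7.86 at day 4, against 9.38, 8.63 and 8.96 at day 0, a log2 difference of -0.71 ± 0.31 (SE, limma adjusted p = 0.272). Day 4 replicate 1 again lay inside the day 0 range. H2-Ea, the alpha chain locus that RefSeq lists as a transcribed pseudogene, read 6.02 and 5.86 on its brightest probe set at day 4, against 5.71, 5.63 and 5.86 at day 0. Its log2 difference of 0.20 did not pass either (limma adjusted p = 0.375).

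Cd74, the invariant chain, followed the chain genes from array to array. It read 8.10 and 7.30 at day 4, against 8.85, 8.10 and 8.46 at day 0. Both day 4 arrays lay below the day 0 arrays, but the lowest day 0 array, replicate 2, stood next to day 4 replicate 1. The log2 difference of -0.77 ± 0.30 (SE), a ratio of 0.587, had a limma adjusted p of 0.238. Over the 7 probe sets of H2-Aa, H2-Ab1, H2-Eb1 and Cd74 the differences spanned -0.93 to -0.70.

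**Figure D1:**
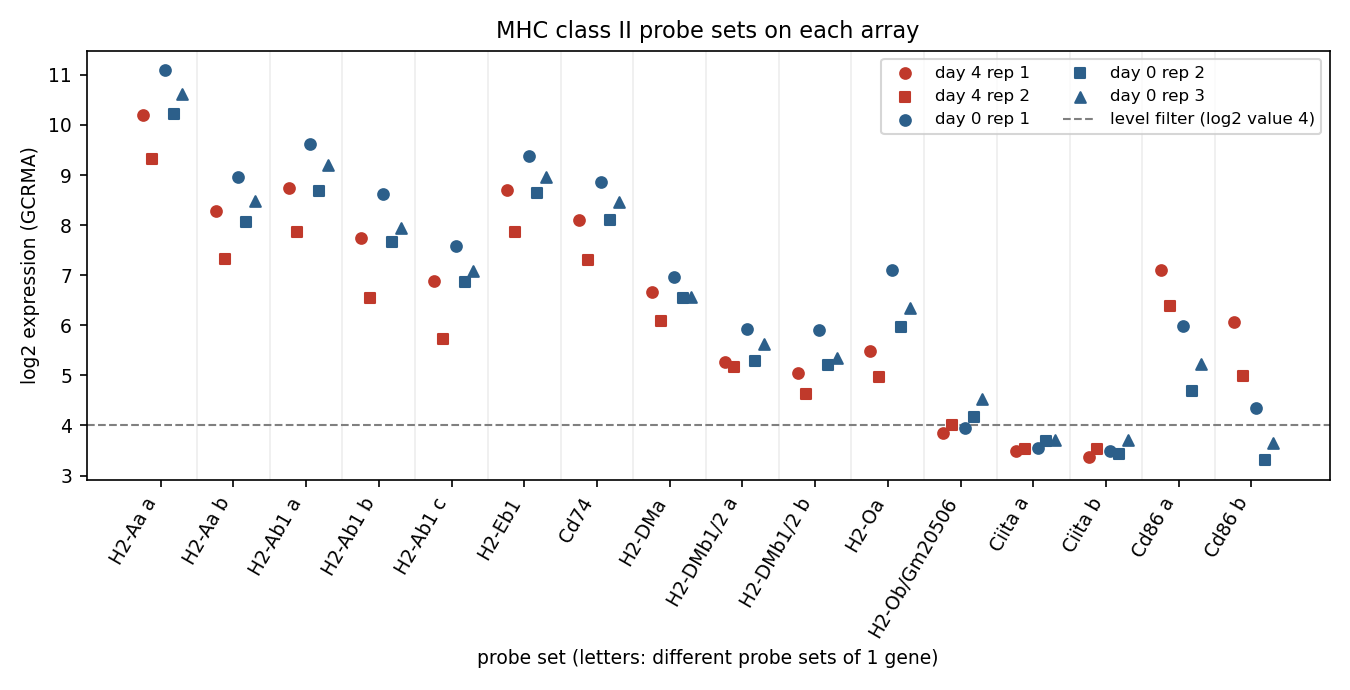
Deposited log2 expression (y axis) of the 16 MHC class II probe sets (x axis) on each array, with day 4 arrays in red and day 0 arrays in blue, replicates by marker shape, and the level filter at 4 dashed. The chain genes and Cd74 are lowest on day 4 replicate 2, Cd86 is higher on both day 4 arrays, and both Ciita probe sets lie under the filter on all 5 arrays.

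The peptide loading genes also had differences below 0, of unequal size. H2-DMa, one chain of the exchange factor H2-DM, read 6.67 and 6.08 at day 4, against 6.96, 6.55 and 6.56 at day 0. Its groups overlapped, and the log2 difference was -0.31 ± 0.21 (SE, limma adjusted p = 0.457). The 2 probe sets shared by H2-DMb1 and H2-DMb2, which encode the partner chain, gave -0.39 and -0.64 (limma adjusted p = 0.313 and 0.221). The first read 5.27 and 5.18 at day 4 against 5.93, 5.29 and 5.62 at day 0, and the second 5.04 and 4.63 at day 4 against 5.90, 5.20 and 5.34 at day 0. Both day 4 arrays lay below the day 0 arrays on each. The probe set of H2-DMb2 alone gave a log2 difference of -0.0036 (limma adjusted p = 0.993), with a positive sign under array weights (0.029) and without day 4 replicate 2 (0.12) or day 0 replicate 3 (0.097).

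H2-Oa, a chain of the H2-DM inhibitor H2-O that B cells and medullary epithelium are known to make, had the lowest difference of the members. It read 5.49 and 4.96 at day 4, against 7.11, 5.97 and 6.35 at day 0. Every day 4 array lay below every day 0 array, and the log2 difference was -1.25 ± 0.34 (SE), a ratio of 0.421 with a 95% interval of -2.09 to -0.41 (limma adjusted p = 0.139). The probe set shared by H2-Ob and Gm20506 stayed close to the level filter, at 3.86 and 4.00 at day 4 against 3.96, 4.17 and 4.53 at day 0. Its order of arrays differed from that of the other members.

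Ciita, whose product switches on the chain genes, was under the level filter on all 5 arrays with both probe sets and was not tested. The first read 3.48 and 3.53 at day 4, against 3.55, 3.70 and 3.71 at day 0. The second read 3.36 and 3.53 at day 4, against 3.49, 3.42 and 3.70 at day 0. Values this low could not be told from background, so neither probe set gave a measure of Ciita.

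Cd86, a ligand of CD28 and CTLA-4 that antigen-presenting cells put beside class II, went the other way. It read 7.10 and 6.39 at day 4, against 5.99, 4.68 and 5.23 at day 0, a ratio of 2.73 and a log2 difference of 1.45 ± 0.40 (SE, limma adjusted p = 0.139). The second Cd86 probe set read 6.07 and 4.99 at day 4, against 4.35, 3.31 and 3.65 at day 0. On both, all day 4 arrays lay above all day 0 arrays. The second gave a log2 difference of 1.76 ± 0.41 (SE, limma adjusted p = 0.103), with 2 of its day 0 values under the level filter, so its size rests partly on background.

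Counted over the 14 tested probe sets, the day 4 arrays lay wholly below the day 0 arrays for 5 and wholly above for 2, and overlapped for 7. Over all probe sets tested, 39.6% did not overlap, of which 20.7% of all lay wholly below and 18.9% wholly above. The size of the differences rested on single arrays. Without day 4 replicate 2, the median log2 difference of the 7 probe sets of the chain genes and Cd74 was -0.32, and without day 4 replicate 1 it was -1.31. For Cd86 the mean of both probe sets was 2.05 without day 4 replicate 2 and 1.16 without day 4 replicate 1. In none of the fits that left out 1 array did a member pass, and each tested member kept its sign.

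**Figure D2:**
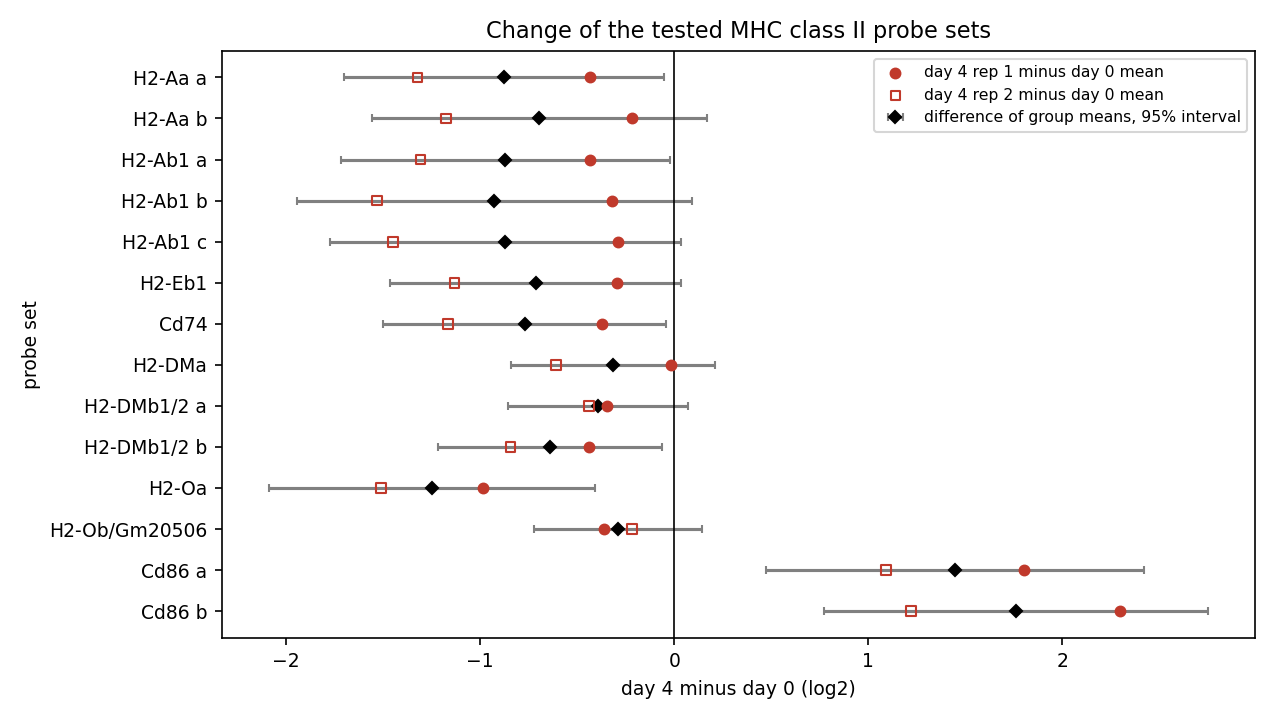
Log2 difference, day 4 minus day 0 (x axis), of the 14 tested MHC class II probe sets (y axis), with black diamonds and bars for the difference of group means and its 95% limma interval, and red symbols for each day 4 array minus the day 0 mean. For the chain genes and Cd74, day 4 replicate 2 lies between -1.53 and -1.13 and day 4 replicate 1 between -0.43 and -0.22, and both Cd86 probe sets lie above 0.

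The members varied together inside each group. At day 4, replicate 1 was above replicate 2 for 13 of the 14 tested probe sets, which held for 45.9% of all tested. At day 0, replicate 1 was the highest and replicate 2 the lowest array for 13 of 14, against 15.8% of all tested. The exception in both cases was the probe set shared by H2-Ob and Gm20506. The 7 probe sets of the chain genes and Cd74 differed by 0.79 to 1.21 between the day 4 arrays, which placed them at percentiles 97.0 to 99.2 of all absolute differences. Their day 0 ranges were 0.73 to 0.96, at percentiles 94.9 to 97.4. Of the 15065 probe sets tested, 48, or 0.319%, had differences between replicates 1 and 2 at least as large as theirs in both groups, and 8 of the 48 were members. These limits were taken from the members themselves, so the share only describes how uncommon the pattern was. Cd86 shared this order of arrays inside each group (0.71 and 1.08 between the day 4 arrays) although its difference between the groups had the opposite sign.

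**Figure D3:**
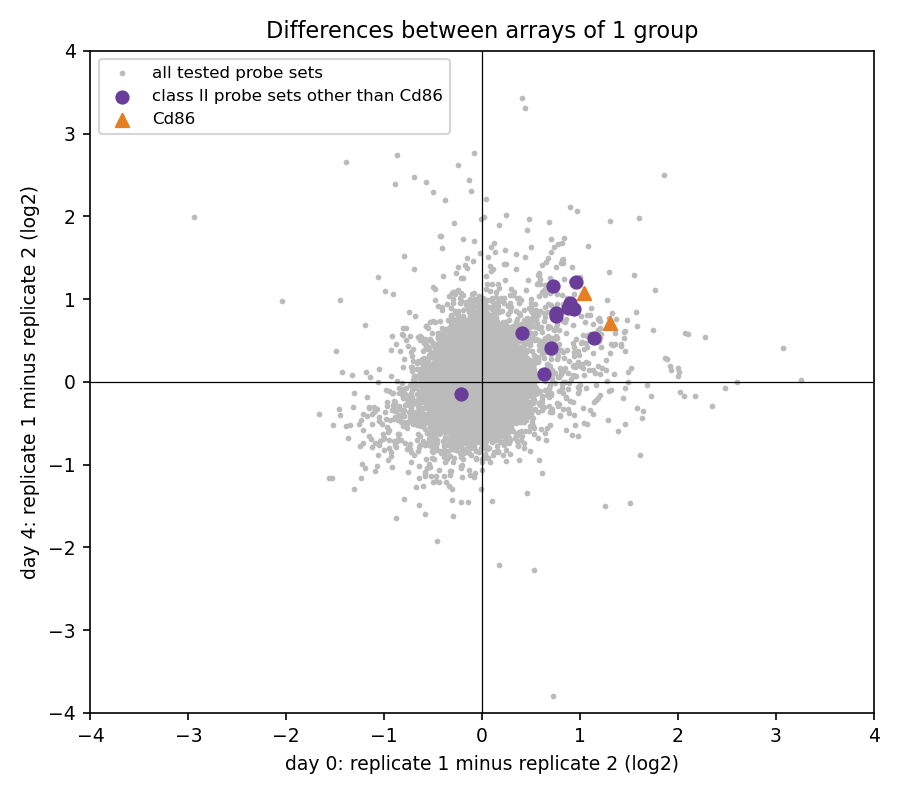
Log2 difference between replicates 1 and 2 at day 0 (x axis) and at day 4 (y axis) for all 15065 probe sets tested (grey), MHC class II probe sets other than Cd86 (purple) and Cd86 (orange triangles). Of the class II probe sets, 13 of 14 lie above and to the right of 0, where replicate 1 is higher in both groups.

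Genes were also ranked by the likeness of their array profile to that of the class II chains. Likeness was the root mean square difference, over the 5 arrays, between a gene centred on its own mean and the mean of the centred H2-Aa, H2-Ab1, H2-Eb1 and Cd74 profiles. Among 8933 other genes the median was 0.56, and Esrp1, a splicing regulator of epithelial cells, was nearest at 0.062. Esrp1 lay near the level filter, at 4.05 and 3.31 at day 4, against 4.81, 3.98 and 4.48 at day 0. It was followed by the Rap1 effector gene Rassf5 (0.12), the ion transport regulator gene Fxyd3 (0.14), the simple epithelial keratin gene Krt8 (0.14) and Prxl2b (0.15). The next were Inmt, Rfc4, Dennd2d, Ldhb and Spc25, at 0.16 to 0.19. Krt8 read 9.58 and 8.34 at day 4, against 10.25, 9.41 and 9.63 at day 0. Of the 10 genes, Krt8 alone was on the list of epithelial markers. None of the 10 passed the test between the groups, and over 5 arrays such likeness is a description only.

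Among other genes of the pathway, the processing proteases had the largest differences. Of 11 tested genes of peptide supply and class II turnover, 1 rose and 0 fell, where 1.68% of all 8940 genes tested were called with 1 probe set each, 0.884% higher and 0.794% lower. The gene was Lgmn, an asparagine endopeptidase of endosomes, at 8.53 and 8.32 at day 4 against 7.64, 7.38 and 7.32 at day 0. The difference was 0.98 ± 0.14 (SE) on the log2 scale, a ratio of 1.97 (limma adjusted p = 0.0376). Lgmn lost the call without any one of the arrays except day 0 replicate 1.

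Ctss encodes cathepsin S, which removes the invariant chain in dendritic cells, macrophages and B cells. It read 10.58 and 9.82 at day 4, against 9.13, 7.94 and 8.24 at day 0. All day 4 arrays were higher, but the log2 difference of 1.77 ± 0.39 (SE) did not pass (limma adjusted p = 0.0943). The array order inside each group was that of Cd86. Cathepsin B, from Ctsb, had a log2 difference of 0.64 (limma adjusted p = 0.0695), and Ifi30, a thiol reductase that opens disulfide bonds in antigens, one of 0.68 (limma adjusted p = 0.235). Cst3, the cathepsin inhibitor cystatin C, and Sppl2a, the protease that clears the last invariant chain fragment, gave -0.48 and -0.46, and neither passed (limma adjusted p = 0.0848 and 0.0795). The median of the list was 0.18, against -0.023 over all genes.

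Of the factors that act on class II promoters, 11 genes were tested and 0 passed with limma. An unadjusted p under 0.05 was found for 2, both lower, where 20.1% of all genes had one, and the median log2 difference was -0.041. These 2 were Rfx5 and Rfxap, both subunits of the RFX complex on the X box. Rfx5 read 6.24 and 6.41 at day 4, against 6.81, 6.71 and 6.66 at day 0. Its groups did not overlap, and its log2 difference of -0.40 had a limma adjusted p of 0.130. Rfxap differed by -0.26 (limma adjusted p = 0.234). Rfxank, the third RFX subunit, did not reach an unadjusted p under 0.05 and gave -0.32 (limma adjusted p = 0.261), and the largest differences above 0 were those of Zxdc (0.23) and the NF-Y subunit gene Nfyb (0.19). Unlike the chain genes, all 3 RFX subunit genes read higher on day 4 replicate 2 than on day 4 replicate 1. Replicate 1 was the higher for 4 of the 11 genes of this list and for 45.9% of all probe sets tested. The order was thus not particular to the RFX genes.

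Interferon gamma, the main inducer of class II outside professional antigen-presenting cells, had its own gene under the level filter on all arrays, with a highest value of 2.46. Of 9 tested genes of its signalling and of related transcription factors 0 passed. At an unadjusted p under 0.05, where 9.62% of all genes were higher, 3 were found, all higher. These were the kinase gene Jak2 (log2 difference 0.55, limma adjusted p = 0.0951), the myeloid transcription factor gene Spi1 (0.62, limma adjusted p = 0.0817) and Irf8, needed by dendritic cells (0.62, limma adjusted p = 0.232). The lowest differences were those of the receptor gene Ifngr1 (-0.31) and of Irf2 (-0.25). Of the costimulatory and checkpoint ligands 6 could be tested and 0 passed, also at an unadjusted p under 0.05. Cd80, the partner of Cd86, stayed under the level filter, at no more than 3.14. Cd40, the receptor through which T cells license antigen-presenting cells, read 6.50 and 5.73 at day 4 against 6.41, 5.87 and 6.36 at day 0. Its log2 difference of -0.096 changed sign without day 4 replicate 2 (0.29) or day 0 replicate 1 (0.0033). Cd274, which encodes the checkpoint ligand PD-L1, gave the largest difference of the 6 tested, 0.43 (limma adjusted p = 0.396), and -0.0099 without day 4 replicate 1. Cd276, a B7 family ligand close to the level filter, had the lowest difference of the 6 tested, -0.26 (limma adjusted p = 0.345). It entered the test through day 0 alone, on 2 arrays just above 4, so the filter favoured a difference below 0. Cd83, which stabilises class II and CD86 on the cell surface, differed by 0.29 (limma adjusted p = 0.675).

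**Figure D4:**
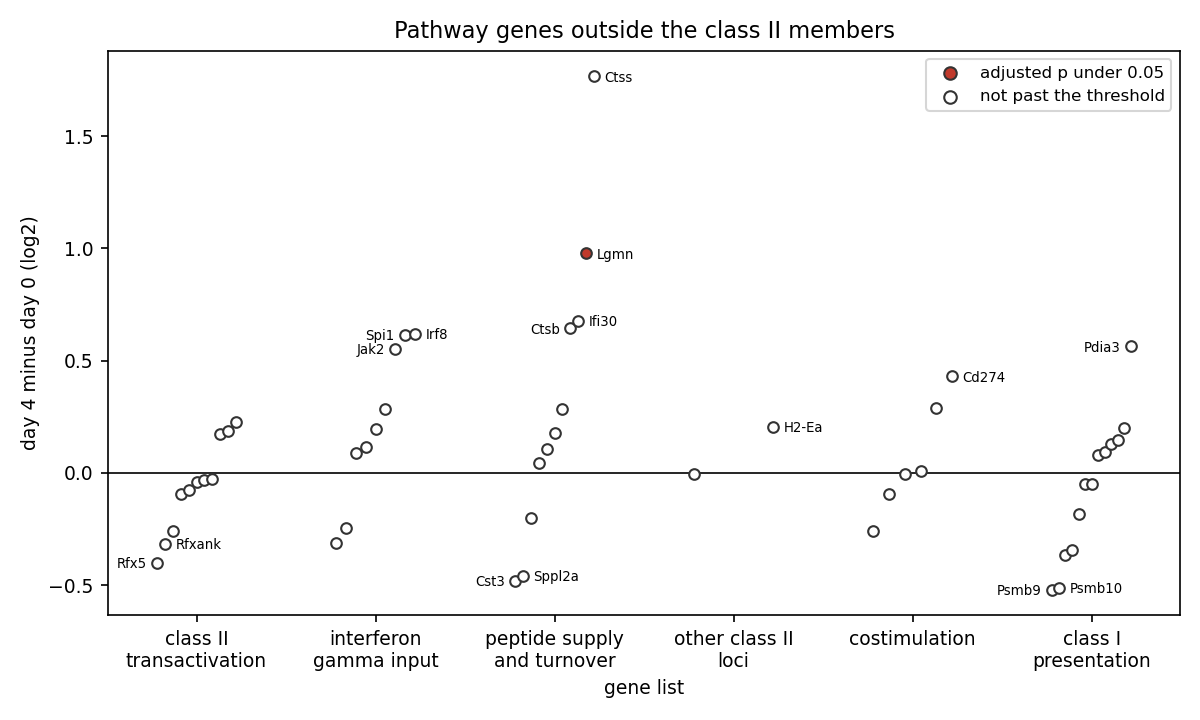
Log2 difference, day 4 minus day 0 (y axis), of the tested genes of 6 pathway lists (x axis), 1 probe set a gene, with filled points for an adjusted p under 0.05. Only Lgmn is filled, and Ctss has the largest difference at 1.77.

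Cells other than endothelium that carry class II differed in how their markers ran beside the members, and their part in the result was not tested. Of 13 endothelial genes 0 passed with limma (1 at an unadjusted p under 0.05), and the log2 differences spanned -0.40 for the angiopoietin receptor gene Tek, followed by -0.20 for the related receptor gene Tie1, to 0.17 for the transcription factor gene Erg. Of 12 fibroblast and 10 pericyte genes 0 passed either, with median log2 differences of 0.070 and 0.029. Day 4 replicate 1 was above day 4 replicate 2 for 10 of the 12 fibroblast genes, with a median gap of 0.41, and for 7 of the 10 pericyte genes, with one of 0.080. Cdh5, which encodes VE-cadherin, read 11.38 and 11.40 at day 4, against 11.57, 11.51 and 11.64 at day 0. Pecam1, an endothelial adhesion gene, read 9.67 and 10.05 at day 4, against 9.70, 9.63 and 9.85 at day 0. Day 4 replicate 1 was the lower day 4 array for both, and for 12 of the 13 endothelial genes.

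Thymic epithelial markers stood lower at day 4, further on replicate 2 than on replicate 1, as the class II chains did. Averaged over 17 epithelial genes, the day 4 arrays stood at 6.55 and 5.63 and the day 0 arrays at 7.19, 6.60 and 6.67. Of 16 tested, 0 passed. An unadjusted p under 0.05 was found for 6, all lower, where 10.5% of all genes were lower at that threshold. Of these, Fezf2 (3.72 and 3.47 at day 4) entered the test through day 0 alone, so it had to read lower. Differences lay below 0 for 15, with a median of -0.83, where 50.8% of all probe sets tested lay below 0. Day 4 replicate 1 was above day 4 replicate 2 for 13 of the 16, by a median of 1.25, against 45.9% of all probe sets tested. Day 0 replicate 1 was the highest day 0 array for 13, against 34.1% of all probe sets tested. The lowest differences were those of Ccl25, a chemokine that draws T cell progenitors (-1.27, limma adjusted p = 0.26), and Krt14, a basal keratin gene (-1.26, limma adjusted p = 0.105), and Krt5 alone was above 0 (0.33, and -0.057 without day 4 replicate 1). Prss16, the thymus-specific serine protease of cortical epithelium, read 9.38 and 7.89 at day 4, against 10.08, 9.26 and 8.86 at day 0. Epcam, the epithelial antigen that the sort selected against, read 7.17 and 5.67 at day 4, against 7.27, 6.59 and 6.83 at day 0, a log2 difference of -0.48 that was 0.27 without day 4 replicate 2. Aire, the regulator of medullary epithelium, had a lower value on day 4 replicate 1 (3.95) than on day 4 replicate 2 (4.50), against 5.76, 5.24 and 5.20 at day 0. The epithelial regulator gene Foxn1 stayed under the level filter, at no more than 3.58.

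The 17 tested macrophage and monocyte markers stood higher at day 4, as Cd86 did. The chemokine receptor genes Cx3cr1 (above 4 on 1 array, at 4.08) and Ccr2 (at no more than 2.36) did not pass the level filter. Averaged over 19 genes, the day 4 arrays stood at 7.45 and 7.25 and the day 0 arrays at 6.35, 5.59 and 5.81. Of 17 tested, 0 fell and 4 rose, where 0.884% of all genes were called higher. Spic, Cd163 and Vsig4 entered the test through their day 4 arrays alone, so they had to differ. The other 14 all had an unadjusted p under 0.05 and day 4 arrays above the day 0 arrays, where 9.62% and 18% of all genes did so. Counted both ways, 41.1% of all genes did not overlap, 23% lying lower. The 4 were Spic, the factor of red pulp macrophages (log2 difference 1.51, limma adjusted p = 0.00831), the scavenger receptor gene Cd163 (2.89), the Fc receptor gene Fcgr1 (2.37) and the lipopolysaccharide receptor gene Cd14 (1.30). The sizes of Spic and Cd163 rest on background at day 0, as does in part that of Fcgr1, which read 4.42, 3.34 and 3.98 there, and Spic and Cd163 could not be tested with 1 day 4 array. Fcgr1 and Cd14 lost the call when either day 4 array was left out, and all 4 lost it without day 0 replicate 3, as did Cd14 without day 0 replicate 2 (10 macrophage genes passed without day 0 replicate 1). Day 0 replicate 1 was the highest day 0 array for 14 of the 17, as for Cd86, against 34.1% of all probe sets tested. The class II chains and 8 of 11 tested thymocyte genes also had it highest. Ptprc, which encodes CD45, read 6.68 and 6.38 at day 4, against 6.86, 6.08 and 6.63 at day 0, a log2 difference of 0.0049 whose sign depended on the normalization (-0.015 after quantile normalization, -0.020 after median centring) and on single arrays (-0.15 without day 4 replicate 1, -0.22 without day 0 replicate 2).

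Markers of B cells and dendritic cells were mostly low. Of 11 B cell genes 6 stayed under the level filter, Cd79a and Pax5 among them, with mean levels of 3.90 and 3.95 in irradiated pools and 4.31, 4.30 and 4.19 in untreated pools. Of 5 tested, 2 fell, where 0.794% of all genes were called lower. These were Ms4a1, which encodes CD20, by 1.45 on the log2 scale (limma adjusted p = 0.0194), and the B cell receptor subunit gene Cd79b by 1.14 (limma adjusted p = 0.0486). Both lay under the filter on both day 4 arrays and entered the test through day 0 alone, so they had to differ and these sizes rest on background. Cd22, an inhibitory receptor of B cells, went the other way and did not pass: it read 5.61 and 5.44 at day 4, against 5.12, 5.06 and 4.94 at day 0 (log2 difference 0.49, limma adjusted p = 0.0994). Leaving out day 4 replicate 1, day 4 replicate 2 or day 0 replicate 3 left 0 B cell genes called, and leaving out day 0 replicate 1 left 1. Of 15 dendritic cell genes 6 stayed under the filter, Flt3 and Xcr1 among them. Their mean levels were 5.18 and 5.22 in irradiated pools and 5.26, 5.16 and 5.26 in untreated pools. These levels include Tcf4 and Bst2, which averaged 10.87 and 9.33 at day 4 and 11.05 and 8.91 at day 0. Which cells gave those high values was not tested. Of 9 tested, 0 passed. An unadjusted p under 0.05 was found for 3 higher genes, Irf8 (log2 difference 0.62), Batf3 (0.53) and Sirpa (0.35), and for 1 lower gene, Ccr7. Of all genes, 9.62% were higher and 10.5% lower at that threshold. The median of the list was 0.24. Itgax, which encodes CD11c, read 4.38 and 4.07 at day 4, against 3.96, 4.07 and 3.91 at day 0. Ccr7, the homing receptor of mature dendritic cells, read 3.37 and 4.02 at day 4, against 5.27, 4.86 and 4.91 at day 0 (log2 difference -1.31, limma adjusted p = 0.06). Thymocytes in mice carry no class II. Their markers averaged 4.08 and 4.02 in irradiated pools and 5.75, 5.11 and 5.52 in untreated pools. Of 11 tested, 0 rose and 5 fell, where 0.794% of all genes were called lower. The 5 were Rag1, Satb1, Ccr9, Cd8b1 and Dntt, by 2.21 to 4.01 on the log2 scale. Rag1, Ccr9 and Cd8b1 entered the test through day 0 alone, so they had to differ, and their sizes rest on background at day 4. Satb1, at 4.30 and 3.98 at day 4, lay close to the filter there. Counts of fallen thymocyte genes were 0, 1 and 1 without day 4 replicate 1, day 4 replicate 2 and day 0 replicate 3, and 8 without day 0 replicate 2.

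**Figure D5:**
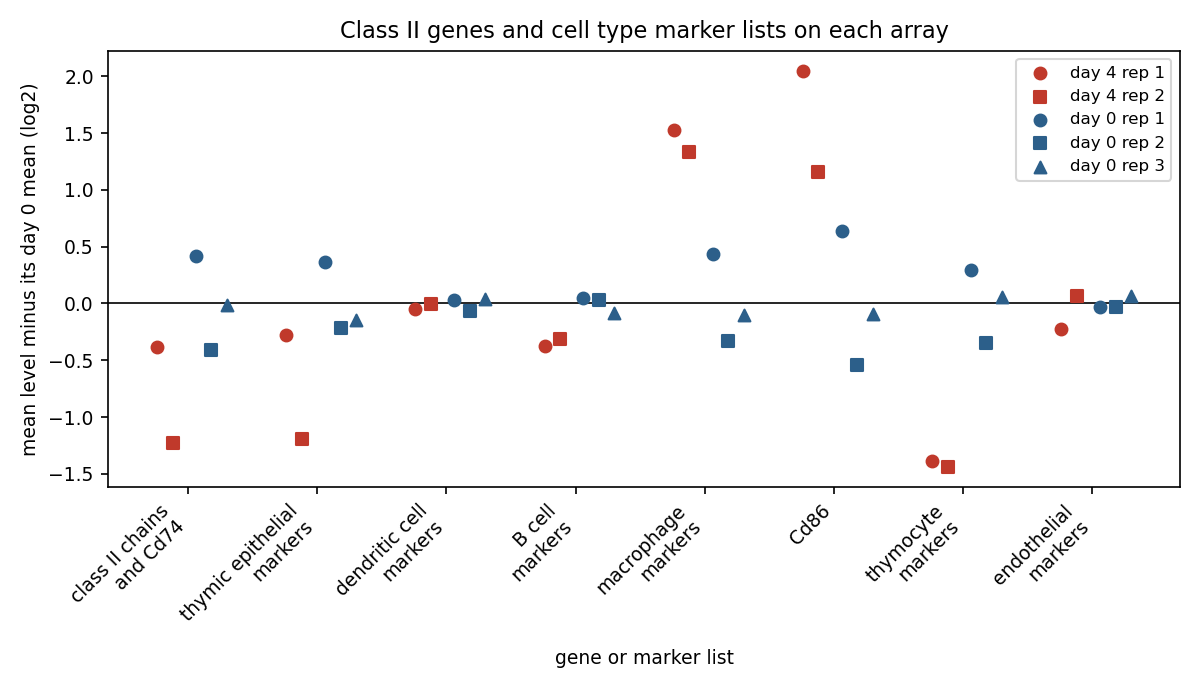
Mean log2 level minus its own day 0 mean (y axis) of the class II chain genes with Cd74, of Cd86 and of 6 marker lists (x axis), with 1 point for each array, day 4 in red and day 0 in blue. The class II chains stand at -0.38 and -1.23 on day 4 replicates 1 and 2, the epithelial markers at -0.27 and -1.19, the macrophage markers at 1.53 and 1.33, and Cd86 at 2.05 and 1.16.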

How the data were processed

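Each of 5 arrays held cRNA of sorted cells pooled from several mice. Per the submitters' processing notes, the deposited log2 values, 1 per probe set and array, were computed by GCRMA. Neither the GCRMA version nor the set of arrays normalized jointly is given in the sources used here. GCRMA takes background from probe sequence, equalizes array distributions and hides shifts shared by most genes. The table carried no detection calls, and the number of arrays limits the precision. Between 64.8% and 65.4% of probe sets lay above 4 on each array, and arrays correlated across genes with r of 0.984 within day 4, 0.990 to 0.992 within day 0 and 0.966 to 0.978 between them.

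Of 22690 probe sets, 64 controls were left out. Symbols came from the platform annotation, and 20351 of 20380 single symbols matched RefSeq by Entrez identifier. Probe sets above 4 on at least 2 arrays (15065) entered limma 3.58.1 (lmFit, eBayes; R 4.3.3), day 4 minus day 0, two-sided, with Benjamini-Hochberg adjustment over all of them and 3 residual degrees of freedom. Calls needed an adjusted p under 0.05. Genes outside the members were read on their brightest single-symbol probe set. The fit was tested on simulated data. Probe sets ending in _s_at or _x_at can read related transcripts.

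The members and lists were chosen with earlier results of these data known. Named genes were all members, the called genes of each list and the 2 largest differences each way, the sort genes and the 10 nearest profiles. Fewer were given for fibroblasts, pericytes, macrophages, dendritic cells, B cells, thymocytes and thymic epithelium. Ifi30, Ctsb, Jak2, Prss16, Aire, Fezf2, Itgax, Sirpa, Tcf4, Bst2, Rfxap, Psmb8, Tapbp and the genes named for low values were added after their values were seen. Alternatives were other normalizations, level filters, gene-level units, eBayes options, array weights, a replicate block, thresholds and leaving out each array. Figures used matplotlib 3.10.9.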

Additional observations from a re-analysis of the deposited data

How the results depend on the processing

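Over 16 alternatives, the 210 values obtained for the member probe sets kept their sign, and 202 stayed on the same side of the threshold. The other 8 passed with the replicate number as a block, which called 2 member probe sets higher and 6 lower, against 0 each in the reported fit. Outside that block the lowest adjusted p of a member was 0.0724. The labels give no meaning to the numbers, only 2 are shared between the groups, and deviations of same-numbered arrays correlated at 0.20 and 0.084, so they were not taken as pairs. With the block, 401 probe sets were called over the whole table, against 210 without it.

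Pathway genes called higher, 1 as reported, were 2 with 1 probe set per gene, 2 with an intensity trend and robust fitting, 2 with the replicate block, 0 with array weights, 5 at an adjusted p under 0.1, 0 under 0.01, and 0 to 2 when 1 array was left out. Pathway genes called lower, 0 as reported, were 1 without the level filter, 1 with 1 probe set per gene, 1 with probe sets averaged per gene, 3 with the trend and 3 at 0.1. Marker genes called higher, 4 as reported, were 1 with array weights, 15 with the replicate block, 11 at 0.1, 1 at 0.01, and 0 to 10 with 1 array left out. Marker genes called lower, 7 as reported, were 11 with 1 probe set per gene, 11 with averaged probe sets, 11 with the trend, 2 with array weights, 14 with the replicate block, 13 at 0.1, 1 at 0.01, and 0 to 11 with 1 array left out. The whole table gave 53 calls with array weights, 309 with the trend, 657 at 0.1 and 23 at 0.01. Leaving out day 4 replicates 1 and 2 in turn gave 15 and 165 calls, and leaving out day 0 replicates 1, 2 and 3 in turn gave 142, 163 and 32. The cause of these shifts was not tested.

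Differences near 0 changed sign. H2-DMb2 was 0.029 with array weights, 0.097 with the replicate block and between -0.12 and 0.12 with 1 array left out. Ptprc was -0.015 after quantile normalization, -0.020 after median centring and between -0.22 and 0.17 with 1 array left out. With 1 array left out, Cd274 lay between -0.0099 and 0.87, Cd40 between -0.48 and 0.29, Krt5 between -0.057 and 0.72, Pecam1 between -0.051 and 0.33 and Epcam between -1.23 and 0.27. A day 4 group of 1 array was assumed to vary like day 0, and low values near the filter rest on background.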

Other observations

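The class I pathway, which shows cytosolic peptides to CD8 T cells, had 13 tested genes and 0 that passed with limma. At an unadjusted p under 0.05, where 10.5% of all genes were lower, 4 were found, all lower. These 4 were 3 subunit genes of the immunoproteasome and Tapbp, which encodes tapasin of the peptide loading complex. Psmb10 had a log2 difference of -0.51 (limma adjusted p = 0.0705), Psmb9 of -0.52 (limma adjusted p = 0.12), Psmb8 of -0.37 (limma adjusted p = 0.195) and Tapbp of -0.34 (limma adjusted p = 0.127). Psmb9 read 8.96 and 9.08 at day 4, against 9.43, 9.44 and 9.74 at day 0. Psmb8 read 9.49 and 9.50 at day 4, against 9.78, 9.74 and 10.06 at day 0. The day 4 arrays lay close together for these genes, unlike those of the class II chains, and below all day 0 arrays. Of the 13, these 4 lay wholly below, where 23% of all genes did. H2-D1 (log2 difference 0.20) lay wholly above, where 18% of all genes did. The largest difference was that of Pdia3 (0.56), whose groups overlapped. Differences lay above 0 for 6 of the 13, and the median was -0.051.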
